A study of Mus musculus with 13 samples.

Results

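In RNA immunoprecipitation sequencing (RIP-Seq) with an antibody to OLIG2, 45157 unique sites (chromosome, strand, start and end) were listed, and 8972 of them (19.9%, exact 95% binomial interval 19.5 to 20.2) overlapped a site of the matched IgG RIP-Seq on the same strand by at least 1 bp. These 8972 shared sites are the RNA that both antibodies recovered. The tag counts of the 2 lists decided which sites are shared, so tag counts and ratios are given below as a description, without a test. The RIP-Seq was 1 library with a rabbit antibody to OLIG2 and 1 library with rabbit IgG, from untreated cells. The labels call both samples newly formed oligodendrocytes (NFOs) of C57BL/6 mice, and the IgG sample carries the word input in its title. The growth protocol of the same labels and the methods of the study describe cultured neural stem cells (NSCs) from the cortex of E14.5 CD-1 embryos. By those methods the cells were cross-linked, then lysed in a buffer for isolating nuclei and sonicated before the pull-down. The series also holds ChIP-Seq peak lists, 1 library each: OLIG2 in oligodendrocyte progenitor cells (OPCs) and in NFOs, and the histone marks H3K4me3 and H3K27me3 at all 3 stages. By the methods of the study, OPCs and NFOs were purified from postnatal C57BL/6 brains, whereas the NSCs were cultured CD-1 cells. Differences of NSCs from the other stages therefore cannot be told apart from strain, age and culture.

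RIP-Seq recovers RNA through a protein that is bound to it, directly or through partners. Nonspecific IgG takes the place of the specific antibody in the control, so RNA found in the control has been carried along by the beads, the antibody or the cell lysate. Ribosomal RNA and abundant messenger RNAs are the usual content of such a control. OLIG2 is a basic helix-loop-helix transcription factor of the oligodendrocyte lineage, known for binding DNA.

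The sequences of 9 shared sites are shown because they represent the kinds of RNA described below: sites outside annotated exons, pseudogenes, a ribosomal protein exon, 5S rRNA genes, and sites with a high OLIG2 share. Each run has 30 bases of GRCm38 (mm10), read 5′ to 3′ on the strand of the annotated exon, or on the listed strand where there is none. Capitals mark the bases of the listed OLIG2 site.
site in an intron of Gm26561, chr17:70963706-70963735, plus strand: ttgccatggtAATCCTGCTCAGTACGAGAG
site in an intron of Fgfr2, chr7:130834575-130834604, minus strand: tttgctcttcTGCTCCACGGGAGGTTTCTG
Gm2451, chr3:139650010-139650039, plus strand: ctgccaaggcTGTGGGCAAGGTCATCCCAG
Gm5138, chr6:83874593-83874622, minus strand: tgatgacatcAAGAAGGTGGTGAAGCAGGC
Rpl13, chr8:123103174-123103203, plus strand: tctgaacaggTGGCTGGCATCCACAAGAAA
Rn5s, chr8:123598197-123598226, minus strand: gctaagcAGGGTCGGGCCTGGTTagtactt
n-R5s106, chr8:123548996-123549025, minus strand: agctaagcagGGACGGGCCTggttagtact
Olig2, chr16:91227537-91227566, plus strand: tttgaagcgatGGAGAGATGcgttcgttcc
Prpf8, chr11:75508760-75508789, plus strand: accccagcttCACACCAGGCTCCTGCACAC
The run of the Olig2 3′ UTR occurred at 1 place in the chromosomes, and so did that of Prpf8. The run of Gm2451 occurred letter for letter at 94 places and that of Gm5138 at 97 places. The run of Rn5s occurred at 61 places and the run of n-R5s106 at 4 places. The run in the intron of Gm26561 occurred at 2 places and was part of an annotated transcript of Lars2, a gene with no listed site of its own in either list.

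The shared sites were few in number and held most of the tags. They carried 759034 of 1075509 OLIG2 tags (70.6%), and the 8886 IgG sites that took part in an overlap carried 762689 of 1061581 IgG tags (71.8%). The median shared site held 21 OLIG2 tags over 7 bp, and its median IgG count was 30 tags. The 36185 sites listed with OLIG2 alone held a median of 6 tags, and 83.2% of them were 1 bp wide, against 28.4% of the shared sites. A wider site meets an overlap rule of 1 bp more easily, so these contrasts in width and tags can follow in part from the rule. The 10 shared sites with most OLIG2 tags held 29.9% of all OLIG2 tags of the shared sites, and the 100 with most held 48.3%.

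Overlap by at least 1 bp was a narrow border. Of the shared sites, 1899 were wider than 1 bp and shared exactly 1 bp with IgG sites, and their medians were 20 OLIG2 tags and 10 IgG tags. On the other side of the border, 12083 sites listed with OLIG2 alone (33.4%) ended within 10 bp of an IgG site on the same strand, with a median of 7 OLIG2 tags. A site was listed only where it passed the threshold of the peak caller, so a site listed with OLIG2 alone does not show that IgG had no tags there. Only 984 shared sites (11.0%) had identical coordinates in both lists, and 894 of these were 1 bp wide.

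The most abundant shared site lay in an intron of the listed lincRNA Gm26561 at chr17:70963716-70963773, where no annotated exon lies. It held 146631 tags with OLIG2 and 131014 tags with IgG, a ratio of 1.12 (95% interval 1.11 to 1.13, counting error only). That site alone held 19.3% of the OLIG2 tags of all shared sites. The next site, in an intron of Fgfr2 at chr7:130834540-130834594, held 23839 OLIG2 tags and 23296 IgG tags (ratio 1.02, 1.0 to 1.04). The site with the highest IgG sum lay beside the first, at chr17:70963783-70963797, with 4479 OLIG2 tags and an IgG sum of 135025, because it overlapped the same IgG site of 131014 tags and a further one. Neither intron was compared here with 28S ribosomal RNA.

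Exons of protein-coding genes followed. Rpl13, a protein of the large ribosomal subunit, had 3 sites among the 10 with most OLIG2 tags, with 8636, 7872 and 7630 OLIG2 tags beside 7603, 8020 and 7353 IgG tags. In Hmgb1, which encodes a chromatin protein, the coding exon at chr5:149049727-149049901 held 6644 OLIG2 tags and 6049 IgG tags, and the exon at chr5:149050294-149050440 held 5995 and 5819. Another Hmgb1 site, at chr5:149050674-149050751, held 3309 OLIG2 tags and an IgG sum of 6432 over 2 IgG sites, the larger with 3396 tags. In Cox4i1, a subunit of mitochondrial cytochrome c oxidase, the site at chr8:120672726-120672892 held 6347 OLIG2 tags and 6350 IgG tags. Apart from that last Hmgb1 site, the ratios of the 6 exon sites lay between 0.982 and 1.14.

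Processed pseudogenes stood beside them. Gm2451, 99.6% identical over 999 bases to a transcript of Gapdh (a glycolytic enzyme), held 7990 OLIG2 tags and 8580 IgG tags at chr3:139650020-139650316. Gm5138, 99.7% identical to Gapdh over 1002 bases, held 5294 and 5714 tags at chr6:83874430-83874612. Both were listed under the genes in whose introns they lie, Stpg2 and Zfp638, and Gapdh itself had no listed site. Of the shared sites, 80 lay in exons of processed pseudogenes (0.892%), and these held 4.83% of the OLIG2 tags; among sites listed with OLIG2 alone the corresponding shares were 0.232% and 0.255%.

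Near-identical copies took part in many of the shared sites. A window of 50 bases around the site matched at least 1 other place in the chromosomes (at least 95% identity over at least 48 bases) for 1109 shared sites (12.4%, 11.7 to 13.1) and for 8.50% of the sites listed with OLIG2 alone (8.21 to 8.79). By tags the shares were 29.9% and 9.12%. The richest shared site, in the intron of Gm26561, counted as a site without a copy by this window. Its printed run of 30 bases nevertheless occurred at 2 places, and the site held 19.3% of the OLIG2 tags of shared sites. The share of tags with copies therefore depends on the window. How reads that match several copies were placed is not given in the sources used here. The site in Gm26561, Rpl13, Hmgb1 and the pseudogenes are therefore uncertain as the source of their tags.

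The 5S rRNA genes on chromosome 8 showed the same counts over and over. The 5S RNA is a small RNA of the large ribosomal subunit, and 36 of the 356 annotated rRNA genes held a shared site, 1 site each. In the 32 copies whose 119 bases equal those of Rn5s, OLIG2 tags lay between 757 and 837 with a median of 807, and IgG tags between 1042 and 1131 with a median of 1084. In the other 4 copies, which differ from Rn5s by 1 base, OLIG2 tags lay between 80 and 84 and IgG tags between 356 and 422. The ratio over the 32 copies was 0.745, with a range of 0.699 to 0.791, and over the 4 copies it was 0.223. The 2 sequence types did not overlap in either library, and every one of the 36 copies had fewer tags with OLIG2 than with IgG. The 36 copies are near-identical in sequence and are not replicates of each other.

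**Figure D1:**
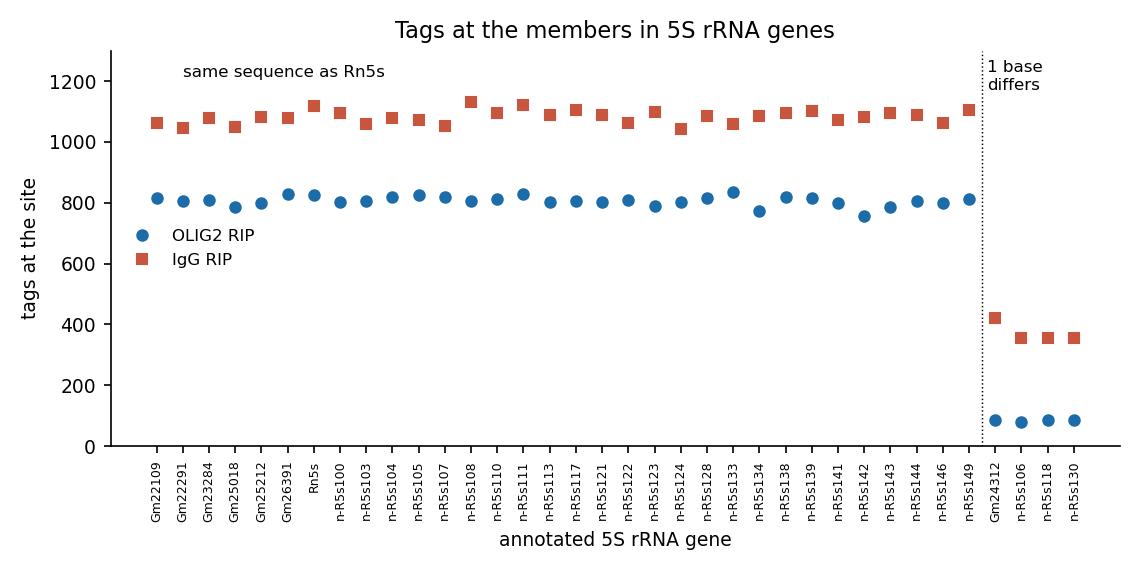
Tags at the shared site of each of 36 annotated 5S rRNA genes (x axis) with OLIG2 (circles) and IgG (squares), on a linear axis. The 32 copies with the sequence of Rn5s lie in a narrow band for each antibody, and the 4 copies that differ by 1 base lie lower in both, at 80 to 84 OLIG2 tags and 356 to 422 IgG tags.

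Most shared sites lay in exons of protein-coding genes. The middle base fell in an annotated exon for 97.8% of shared sites, and the gene was protein-coding for 94.9% (94.4 to 95.3), against 75% (74.5 to 75.4) of the sites listed with OLIG2 alone. These intervals treat each site as an independent draw, although sites share genes, copies and strands, so they are too narrow. Sites without any exon made up 2.16% of the shared sites and 22.2% of those listed with OLIG2 alone. By tags the picture was different, since 23.5% of the OLIG2 tags of shared sites lay outside exons, nearly all at the sites in Gm26561 and Fgfr2.

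Within the transcripts that the lists name, coding sequence held 46.4% of the shared sites (45.4 to 47.4), introns 25.4%, the 3′ UTR 23.7%, exons of noncoding transcripts 2.98% and the 5′ UTR 1.20%. Coding sequence held 33.4% and introns 38.3% of the sites listed with OLIG2 alone, and the 3′ UTR held 24%. Weighted by OLIG2 tags, introns held 53.0% of the shared tags. The median ratio of OLIG2 to IgG tags was 0.750 in coding sequence, 0.750 in introns, 0.818 in the 3′ UTR, 0.845 in the 5′ UTR and 0.475 in exons of noncoding transcripts.

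**Figure D2:**
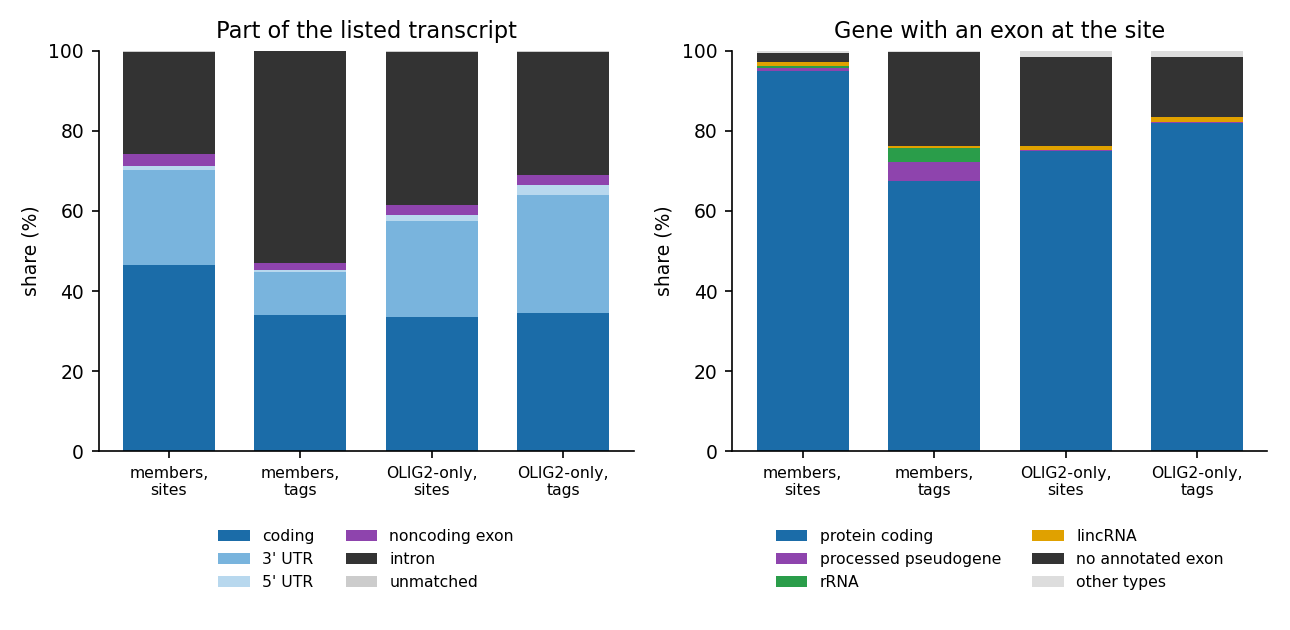
Stacked bars of the share (%) of sites and of OLIG2 tags, for shared sites (members) and sites listed with OLIG2 alone, by the part of the listed transcript (left) and by the gene with an exon at the middle base (right). Introns of listed transcripts hold 25.4% of shared sites and 53.0% of their tags, whereas only 2.16% of shared sites have no annotated exon.

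The intron share belonged largely to the transcripts chosen in the lists. Of the 2275 shared sites in introns of listed transcripts, 2029 lay in an exon of another annotated gene, 79 in an exon of another transcript of the listed gene, and 167 in no exon. Gm20388, a readthrough gene with a transcript of 4.43 Mb on chromosome 8, was listed for 1299 shared sites, for 1153 of them as the only gene. Of these 1153, 2 lay in its own exons and 1032 in exons of other genes, among them Tcf25 with 86 sites, Ankrd11 with 76 and Slc7a5 with 70. The sites of Rpl13, Cox4i1 and the 5S rRNA genes were also listed under Gm20388. Fgfr2, with a transcript of 2.96 Mb, was listed for 398 shared sites, of which 8 lay in its own exons and 389 in exons of other genes. Every one of the 90 shared sites listed under Gm26561 lay outside its own exons. Genes are therefore named below by the exon at the middle base.

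By exon, shared sites fell in 502 genes, with a median of 8 sites per gene. The genes with most were Egfr with 161 shared sites, Ankrd11 with 141, Agrn with 135, Itgb1 with 117 and Zcchc14 with 109. EGFR is the receptor for epidermal growth factor, agrin is a proteoglycan of the extracellular matrix, integrin beta 1 is an adhesion receptor, and ANKRD11 is a chromatin regulator. By listed gene, the order was Gm20388, Fgfr2, Egfr, Agrn and Itgb1. In Egfr, 161 shared sites stood beside 215 listed with OLIG2 alone and 167 listed with IgG alone.

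Several OLIG2 sites often overlapped the same wide IgG site, so overlapping sites were also joined into regions, in which each tag of a library counts once on a strand. Both libraries were present in 7650 regions, with 723735 OLIG2 tags and 736838 IgG tags. Across these regions the log2 tag counts of the 2 libraries had a Pearson r of 0.69 (n = 7650), and r was 0.95 across the 155 regions with at least 1000 tags together; the regions share genes, copies and the peak caller, and r is a description. The 155 regions include 32 5S rRNA copies of the same sequence. Across the 8972 shared sites r was 0.59.

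**Figure D3:**
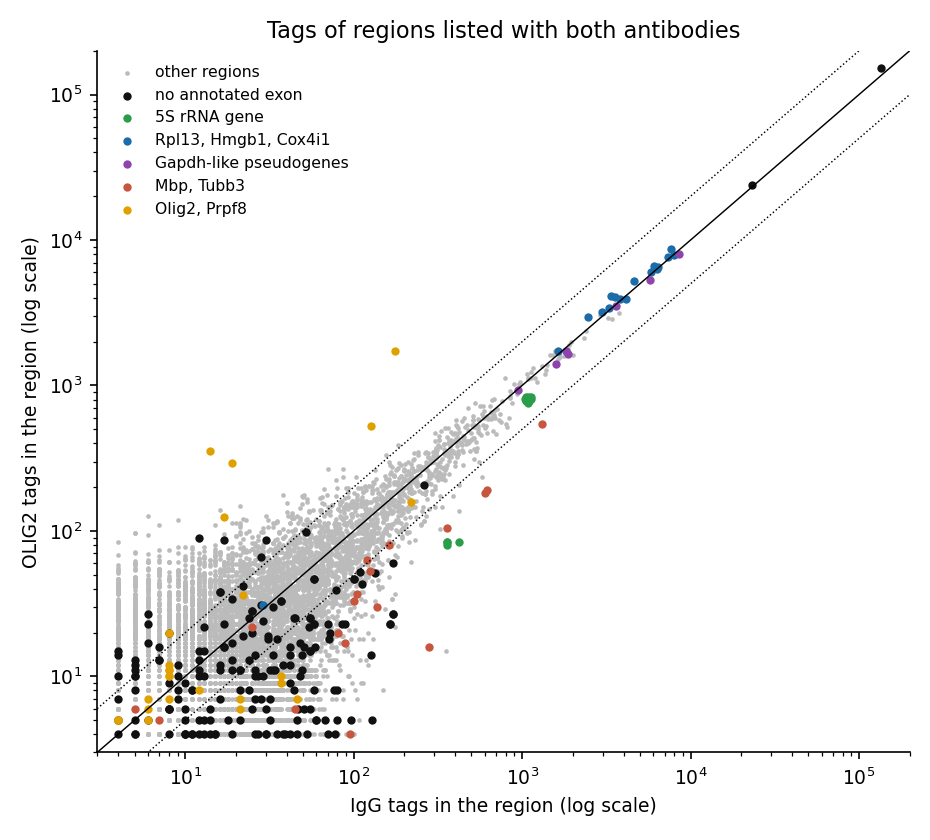
OLIG2 tags against IgG tags of the 7650 regions listed with both antibodies (1 point per region, log axes), with the line of equality and dotted lines at a ratio of 2 and of 0.5. The regions with most tags lie along the line of equality, the 5S rRNA genes and Mbp lie below it, and the Olig2 regions lie above.

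At single shared sites, the ratio of OLIG2 to IgG tags had a median of 0.756, with 90% of sites between 0.104 and 4.02. It was above 2 at 1407 sites (15.7% of all shared sites) and below 0.5 at 3142 sites (35.0%). Of the sites past a fold of 2, 30.9% were higher with OLIG2. In regions the median was 0.913, the ratio was above 2 in 1378 (18.0%) and below 0.5 in 1901 (24.8%), and 42.0% of the regions past a fold of 2 were higher with OLIG2. With the tags at the highest base of each site in place of their sum, 421 sites were above 2 and 2285 below 0.5, and the split was 15.6%.

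The width of the listed sites moved with the ratio. Sites above a ratio of 2 had a median width of 12 bp with OLIG2 and 1 bp with IgG, and the OLIG2 site was wider at 94.7% of them. Sites below 0.5 had medians of 1 bp and 14 bp, and the IgG site was wider at 91.0%. Between these limits the medians were 8 bp and 7 bp. At the 984 sites with identical coordinates the median ratio was 0.800, with 56 sites above 2 and 229 below 0.5. How much of a ratio past 2 comes from the listed width was not tested.

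The spread of the ratio was widest in regions of 20 to 99 tags in both libraries together and narrower above. Every listed site held at least 4 tags, so under 20 tags the ratio could only lie between 0.267 and 3.75. The range under 20 tags is therefore no measure of how variable those regions are. In regions of under 20 tags, 90% of ratios lay between 0.333 and 2.80, in regions of 20 to 49 tags between 0.160 and 5, and in regions of 50 to 99 tags between 0.149 and 5.42. In regions of 100 to 299 tags they lay between 0.282 and 2.96, in regions of 300 to 999 tags between 0.479 and 1.63, and in the 155 regions of at least 1000 tags between 0.718 and 1.23. Of these 155 regions, 1 was above 2 and 1, in Mbp, was below 0.5. The 155 include the 32 5S rRNA copies with the sequence of Rn5s, with ratios from 0.699 to 0.791, so their range is weighted by 1 repeated sequence.

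**Figure D4:**
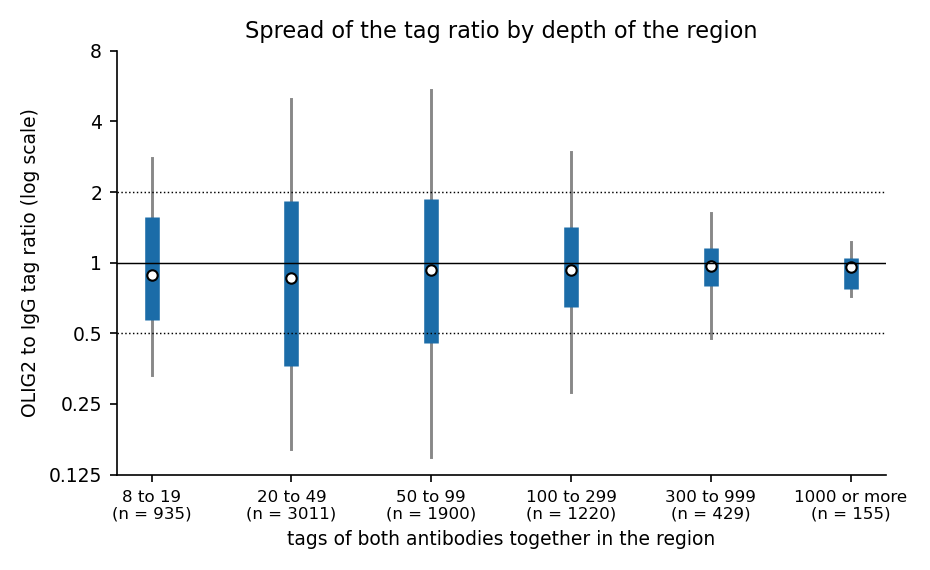
Ratio of OLIG2 to IgG tags (y axis, log scale) of regions listed with both antibodies, by the tags of both together (x axis, n = regions). Open circles are medians, thick bars the middle 50% and thin lines the middle 90% of regions, and dotted lines mark 2 and 0.5. The middle 90% narrows to 0.718 to 1.23 at 1000 tags or more, with a median of 0.954, and 32 of these 155 regions are 5S rRNA copies of the same sequence. Ratios under 20 tags are bounded, because each listed site held at least 4 tags.

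The single region above 2 among those 155 was in the 3′ UTR of Olig2. Its site at chr16:91227548-91227556, printed above, held 1717 OLIG2 tags over 9 bp, and the IgG list had 175 tags at 1 base inside it, a ratio of 9.81 (8.39 to 11.5). The second shared site of Olig2, the base at position 91227760, held 530 OLIG2 tags and 126 IgG tags (ratio 4.21, 3.46 to 5.15). At the highest base alone, the first site had 629 OLIG2 tags and 175 IgG tags, a ratio of 3.59. Both Olig2 sites were thus higher with OLIG2 on either measure. These were the only 2 sites of Olig2 in the IgG list, and they held 9.10% of the 24703 OLIG2 tags of the gene. The other 40 Olig2 sites, of which 3 held more tags than the first shared site, with 2279 at most, had no listed IgG site. The RPKM (read count scaled to transcript length and library depth) of the Olig2 transcript, from a separate RNA-Seq library, was 91.2, against a median of 0.586 over shared sites.

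Summed over regions, 200 genes had at least 1000 tags, and their ratios had a median of 0.926, with 90% between 0.681 and 1.29. The 200 include the 32 5S rRNA copies with the sequence of Rn5s, each counted as a gene, with ratios from 0.699 to 0.791. The median and range are thus weighted by 1 repeated sequence. Only 2 of the 200 were above 2, and 2 were below 0.5. Olig2 had the highest ratio, 7.47 (6.62 to 8.45), from 2247 OLIG2 tags and 301 IgG tags. Prpf8, the central protein of the U5 small nuclear ribonucleoprotein of the spliceosome, had 1130 and 550 tags (2.05, 1.85 to 2.28). Mbp, which encodes myelin basic protein, had the lowest ratio, 0.331 (0.307 to 0.356), from 948 OLIG2 tags and 2866 IgG tags. Tubb3, the tubulin of neurons, had 465 and 1398 tags (0.333, 0.299 to 0.370). Without replicates, whether these 4 genes would differ in a second pair of libraries cannot be told.

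**Figure D5:**
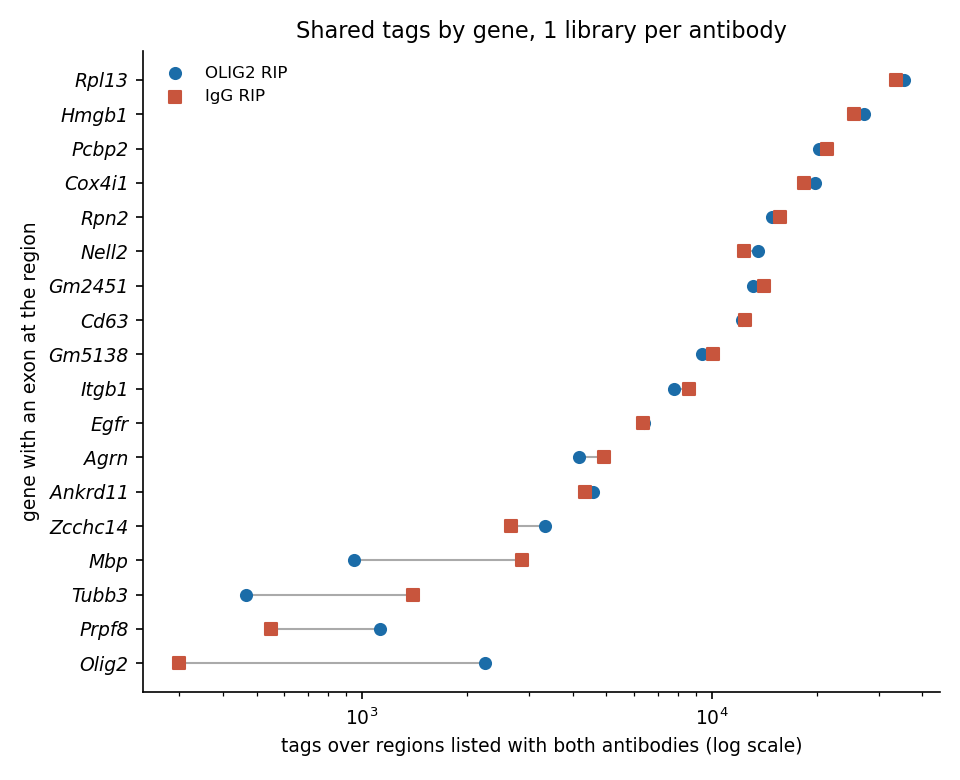
Tags summed over the regions listed with both antibodies (x axis, log scale) for 18 genes named in the text, with OLIG2 (circles) and IgG (squares). The 2 values nearly coincide from Rpl13 to Egfr, whereas OLIG2 is lower in Mbp and Tubb3 and higher in Prpf8 and Olig2.

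The difference in Mbp ran along the gene. All 13 of its regions had fewer tags with OLIG2, with ratios between 0.0421 and 0.880 and a median of 0.291, and the richest region had 543 OLIG2 tags and 1308 IgG tags. In Tubb3, 4 of 5 regions were lower with OLIG2, with ratios between 0.304 and 1.20. The window of its richest region, with 191 OLIG2 tags and 622 IgG tags, had a copy elsewhere. At sites listed with a single antibody, Tubb3 had 141 OLIG2 tags and 135 IgG tags, and Mbp had 104 and 159. In Prpf8 the sum rested on few regions, since 4 of 24 were above 2 and 5 were below 0.5, and its region with most tags of both libraries had 159 with OLIG2 and 218 with IgG. At Prpf8 sites listed with a single antibody the tags were 1983 with OLIG2 and 1715 with IgG. The exon site of Prpf8 at chr11:75508770-75508839 held 354 OLIG2 tags and 14 IgG tags, the highest ratio of all shared sites with at least 20 tags in both libraries together (25.3, 14.9 to 46.7), and the site at chr11:75508613-75508660 held 295 and 19. At their highest bases these sites had 35 against 5 tags and 42 against 8 tags.

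The other sites with the highest ratios were small. In Gaa, the lysosomal enzyme that breaks down glycogen, the coding site at chr11:119284525-119284548 held 127 OLIG2 tags and 6 IgG tags (ratio 21.2, 9.46 to 58.8). A coding site of Gm47283 on chromosome Y held 84 and 4 tags, and its window had a copy elsewhere. In 1110059G10Rik, 2 coding sites at chr9:122949020-122949056 and chr9:122950805-122950841 held the same counts, 97 OLIG2 tags and 5 IgG tags each. The 5 lowest ratios, from 0.00843 to 0.00861, were all at OLIG2 sites of 1 bp inside wide IgG sites. The base at chr14:77251968 had 4 OLIG2 tags and lay in a single IgG site of 472 tags. The IgG counts of the other 4 are sums over 2 or 3 IgG sites at the same base, in which tags count more than once: the base in Agrn had 7 OLIG2 tags and an IgG sum of 824, with 417 in the largest IgG site (ratio 0.0168), and the base in Klc1, a kinesin light chain, had 6 and a sum of 697, with 278 in the largest (0.0216). IgG sites that overlapped each other were summed at 409 of the 8972 shared sites (4.56%).

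The genes with most shared tags had ratios near 1 in most cases. Over its 6 regions Rpl13 had 35327 OLIG2 tags and 33653 IgG tags (ratio 1.05, 1.03 to 1.07), with region ratios between 0.947 and 1.14. Hmgb1 had 27249 and 25509 tags (1.07), and its 5 regions lay between 1.01 and 1.23. Pcbp2, a poly(C)-binding protein, had 20207 and 21397 tags (0.944). Part of the Pcbp2 tags were listed again for Map3k12 on the other strand, where 2843 OLIG2 tags and 3418 IgG tags stood at overlapping coordinates.
Cox4i1 had 19681 and 18386 tags (1.07), and Rpn2, a subunit of the oligosaccharyltransferase, had 14823 and 15674 (0.946). Nell2, a secreted protein of neural cells, had 13529 and 12336 tags (1.10). Cd63, a tetraspanin of late endosomes, had 12214 and 12474 (0.979), and its 9 regions lay between 0.908 and 1.10. Itgb1 had 7808 and 8609 tags (0.907, 0.879 to 0.935), and Dync1h1, the heavy chain of dynein, had 6626 and 8329 (0.796, 0.770 to 0.822). Egfr had 6411 and 6378 tags (1.01), with region ratios from 0.121 to 8.40. Of the 140 Egfr regions, 30 were above 2 and 26 were below 0.5.

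Tags were counted without regard to strand. All 587 shared sites that were listed on both strands at the same coordinates (6.54%) had the same OLIG2 tags on each strand, and 804 shared sites (8.96%) overlapped an OLIG2 site on the other strand. Reads from a gene and from an antisense partner cannot be told apart at these sites.

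The published short target list of the study was chosen on these libraries and is no independent evidence of direction. It had a shared site in 9 of its 11 genes, of which 10 had an OLIG2 site. Over all genes with an exon at an OLIG2 site, 502 had a shared site and 353 had none. The study chose single peaks by a tag fold above 2 over IgG, with limits on p-value and RPKM. Sums over regions are another measure. Over regions, 2 of the 9 were above 2, Olig2 and 1110059G10Rik (212 OLIG2 tags and 63 IgG tags, ratio 3.37, 2.53 to 4.53). Among the 200 genes with at least 1000 tags, which include Olig2 but not 1110059G10Rik, 2 were above 2. Ube2j2, a ubiquitin-conjugating enzyme of the endoplasmic reticulum, had 1349 and 949 tags (1.42), and its richest region at chr4:155951478-155951508 had 236 and 86. Mib2, a ubiquitin ligase of the Notch pathway, had 576 and 474 tags (1.22), with 8 regions above 2 and 5 below 0.5 among 24. Rae1, a factor of messenger RNA export, had 1092 and 997 tags (1.10).
In the regions listed with both antibodies, the remaining 4 genes had more tags with IgG. The median ratio of the 200 genes with at least 1000 tags was itself below 1, at 0.926. Noc2l, an inhibitor of histone acetyltransferases, had 561 OLIG2 tags and 599 IgG tags (0.937, 0.833 to 1.05), an interval that spans 1. Mrpl20, of the mitochondrial ribosome, had 899 and 1014 (0.887, 0.810 to 0.971). Rfc3, a subunit of the clamp loader of DNA replication, had 974 and 1100 (0.885, 0.811 to 0.966), and Rsrc2 had 580 and 706 (0.822, 0.735 to 0.918). At sites listed with a single antibody, Noc2l had 927 OLIG2 tags and 698 IgG tags and Mrpl20 had 179 and 123, more with OLIG2, whereas Rfc3 had 225 and 273 and Rsrc2 888 and 899. Each of these genes also had sites listed with OLIG2 alone, from 12 sites in 1110059G10Rik to 108 in Mib2 over the 9 genes. Single sites could lie on either side of these sums. Sites of Mib2 (63 OLIG2 and 6 IgG tags, 10.5), Rae1 (114 and 33, 3.45), Rsrc2 (99 and 36, 2.75) and Noc2l (93 and 39, 2.38) were above 2. A site of Rfc3 had 92 OLIG2 tags and an IgG sum of 219 (0.420), or 1.08 with the largest IgG site alone. Mrpl20 sites had ratios of 0.832 and 0.535. Acoxl and Mtus2 had no shared site.

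Few genes of the RNA class and cell type lists were present in either list, which limits what the shared sites can say of them. Sites of either list lay in 449 of 2737 bins of 1 Mb (16.4%), and in exons of 657 of 21922 annotated protein-coding genes (3.00%); 415 of these genes (1.89%) had a shared site. Rpl13 was the only 1 of 83 ribosomal protein genes with a site, Tubb3 the only 1 of 9 actins and tubulins, and Rsrc2 the only 1 of 28 splicing factors. None of 9 translation factors, 9 nuclear lncRNAs, 37 mitochondrial genes or 101 histone genes had a site in either list. No shared site lay in a snRNA, snoRNA or miRNA gene, where 1, 1 and 4 genes had a site of either list.
Of the cell type markers, 1 of 7 OPC genes (Olig2), 1 of 9 oligodendrocyte genes (Mbp, 17 shared sites) and 2 of 6 neuron genes (Tubb3, and Rbfox3 with 98 OLIG2 tags and 90 IgG tags) had a shared site. None of 10 NSC, 5 astrocyte, 5 microglia and 3 endothelial markers had a site in either list. Whether the cells were NSCs or NFOs could therefore not be checked by these markers.

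The transcripts at shared sites had low RPKM values that came from another library. The median RPKM was 0.586 at shared sites and 0.350 at sites listed with OLIG2 alone, and 41.3% and 26.7% of sites had a transcript with an RPKM above 1. These values belong to the listed transcript, and the sites in Rpl13 and Cox4i1 carry the value of Gm20388, 0.350. The GC content of the 50-base window had a median of 52.0% at shared sites and 50% at sites listed with OLIG2 alone. Repeats marked in the reference covered most of the window at 5.16% of shared sites (4.71 to 5.64) and at 8.72% of the others (8.43 to 9.01).

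ChIP-Seq peaks are a readout that played no part in choosing the sites. Of the 502 genes with a shared site, 461 (91.8%, 89.1 to 94.1) had an H3K4me3 peak, the mark of active promoters, within 2 kb of an annotated start in NSCs. The count was 217 of 353 genes (61.5%, 56.2 to 66.6) that had OLIG2 sites but no shared site. Sites listed with IgG alone were not considered in choosing these 353 genes, so some of the genes can hold them. In OPCs the shares were 86.7% and 57.5%, and in NFOs 62.5% and 40.2%. H3K27me3, a repressive mark, was present at 21.7% and 18.4% of the genes in NSCs and 16.3% and 14.4% in NFOs, with overlapping intervals. OLIG2 peaks of OPCs lay near the start of 53 of the 502 genes (10.6%, 8.01 to 13.6) and those of NFOs near 59 (11.8%, 9.07 to 14.9), beside 7.65% and 8.50% of the 353 genes. Neighbouring genes can share a peak. Of the 502 genes, 415 were protein-coding, and the 2 groups of genes were not matched by gene type. These differences were not tested.
At the sites themselves, OLIG2 peaks of OPCs overlapped 7 of 8972 shared sites (0.0780%, 0.0314 to 0.161), and those of NFOs overlapped 13 (0.145%, 0.0772 to 0.248). The corresponding shares of sites listed with OLIG2 alone were 0.0663% and 0.152%. No OLIG2 peak lay within 2 kb of the starts of Olig2, Prpf8, Mbp, Egfr, Rpl13 or Tubb3 in either cell type, while all 6 had an H3K4me3 peak there in NSCs and OPCs. In NFOs, Mbp and Egfr had no H3K4me3 peak there. OLIG2 ChIP-Seq of NSCs, in which the paper reports OLIG2 at the Olig2 promoter, was not among the lists used here.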

How the data were processed

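The authors called RIP sites with ASPeak at default parameters, with NSC RNA-Seq for the negative binomial model and the IgG library as control, on mm10 with GENCODE genes. The aligner of the RIP reads is not given in the sources used here. The deposited lists hold raw tag counts per site, the RPKM of the transcript, a p-value and an upper bound of the FDR. All OLIG2 p-values were at most 0.00999, and the FDR bounds were 0.395 to 0.451. The deposited ChIP lists give the fold enrichment ratio and −log10 p-values of the authors' SPP and MACS2 peaks.

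Rows were reduced to unique sites with the largest tag count over rows. The IgG count of a shared site is the sum over the IgG sites it overlaps. To form regions, the widest of overlapping sites within a list was kept. Sites were annotated with GENCODE M21 by transcript identifier without version, and 31 shared sites had no match. Copies were found with BLAST+ 2.17.0 and intervals with scipy 1.17.1 (exact Clopper-Pearson, 95%). The interval of a ratio comes from the OLIG2 share of the tags and covers counting error only. The interval of a share treats sites or genes as independent draws and leaves out the genes, copies and strands that sites have in common. Overlaps and sums were checked on simulated intervals. Sites named are the 10 with most tags in either library, the 5 highest and 5 lowest ratios with at least 20 tags, the 5 genes with most sites, and genes of the target, class and marker lists. Richest regions, Mbp and Tubb3 came from their sums. The sites and lists were chosen with earlier results of these data known.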

Additional observations from a re-analysis of the deposited data

How the results depend on the processing

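The number of shared sites was 9109 on either strand, 8970 with p-values below 0.01 and 7650 as regions. It was 5667 with an overlap of at least 50% of the OLIG2 site, 5857 with at least 10 tags in both lists, 3691 for transcripts with an RPKM above 1 and 984 with identical coordinates. The median ratio stayed below 1 in all 7 alternatives run. It was 0.746 after division by list totals, 0.800 with the largest overlapped IgG site, 0.815 with at least 10 tags in both lists, 0.913 in regions, 0.800 at identical coordinates, 0.727 at the highest base and 0.909 in regions without a copy elsewhere. At a fold of 4, 449 sites were higher with OLIG2 and 1522 with IgG. By the highest base 421 were higher with OLIG2, at identical coordinates 56 and 229 were past a fold of 2, and 1901 regions were higher with IgG. Weighted by tags, coding sequence held 33.9%, introns 53.0%, the 3′ UTR 10.8% and protein-coding exons 67.5%; by the listed gene, 96.5% of the sites were protein-coding. The OLIG2 tags of shared sites were 65.0% without the 2 richest sites and 70.9% without sites listed on both strands. With the peak filter of the study (fold above 3.5, FDR below 0.05), 70 genes had an H3K27me3 peak in NSCs in place of 109. For this filter, a column of the peak lists was read as −log10 FDR, which the description of the lists does not name. Identical coordinates for the ratio and the fold counts, the highest base, regions as a count past 2, regions without copies, the listed gene and the left-out sites were chosen after seeing the data. No paired analysis was possible because each antibody had 1 library. Depth limits ratios at sites of few tags, and the libraries' mapped totals were not used here.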
